A study of Mus musculus with 26 samples.

Results

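The levels of 10 genes that encode proteins of the basement membrane were followed across mouse liver groups: Col4a1, Col4a2, Lama4, Lamb1, Lamc1, Nid1, Nid2, Hspg2, Col15a1 and Col18a1. They were chosen by name, as the rows of the deposited count table whose Ensembl identifier maps to these symbols, and are 10 of its 55642 gene identifiers. These genes, and the lists of related genes below, were chosen with earlier results of these data known. Shares of all genes set beside their counts are therefore a background and not a test. All 10 were among the 17104 genes that passed the filter on low counts. The study sequenced RNA from 26 liver samples, called livers below, in 4 groups. These were wildtype on control chow (n = 5), wildtype on CDAHFD (n = 6), heterozygous Mtarc1 knockout on CDAHFD (n = 7) and homozygous Mtarc1 knockout on CDAHFD (n = 8). CDAHFD is a choline-deficient, amino acid-defined, high-fat diet used to bring on steatohepatitis and fibrosis in mice, and it was given for 2 weeks before RNA was extracted. Mtarc1 encodes an enzyme of the outer mitochondrial membrane. The labels number the samples of a group and do not say whether they came from different mice; p-values therefore speak only of the spread among samples, which may be technical. How the knockout was made, and the strain, sex and age of the mice, were not given in the sources used here. No knockout liver on chow was analysed here, so a genotype difference on CDAHFD cannot be told apart from one already present on chow.

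A basement membrane is a thin sheet of matrix under epithelia and around vessels, muscle and nerve. Its backbone is a network of collagen IV and a network of laminin, joined by nidogens and by perlecan, a heparan sulfate proteoglycan; collagens XV and XVIII lie at the face toward the stroma. The normal liver sinusoid is known for lacking a continuous basement membrane, its space of Disse holding only scattered collagen IV, laminin and perlecan. Gain of a continuous basement membrane along the sinusoid, called capillarisation, is a textbook feature of chronic liver injury. Stellate cells, endothelial cells and, for collagen XVIII, hepatocytes are known sources of these proteins.

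Library totals ran from 19.7 to 29.9 M (mega) estimated counts. Levels are in CPM, counts per mega counts of the library after TMM scaling. Mtarc1 averaged 305 ± 40.2 CPM on chow (SD, n = 5). On CDAHFD it averaged 235 ± 40.7 with both Mtarc1 copies (n = 6), 161 ± 33.7 in heterozygotes (n = 7) and 48.7 ± 10.4 in homozygotes (n = 8), in the order of the genotype labels. The share of counts from mitochondrial genes was 13.1% ± 2.98 (SD, n = 5) on chow and 10.1% ± 2.33, 8.08% ± 1.85 and 9.29% ± 1.64 in wildtype, heterozygous and homozygous livers on CDAHFD; its part in the results was not tested. The names of the libraries fall into 2 number series, of 9 and 17 libraries, which the labels do not call batches. Of the lower-numbered libraries, 1 is from chow, 3 are wildtype on CDAHFD, 3 heterozygous and 2 homozygous. Wildtype CDAHFD sample 3, of the lower-numbered series, was the highest of its group for 8 of the 10 genes. Results for the 10 genes are therefore also given without samples 2 and 3 of that group, or in the higher-numbered series alone. This is done for the main values that it changes. Values of the related gene lists and of the cell type markers are not given in these settings. Heterozygous sample 1 was the lowest of its group for 6 of the 10 genes and homozygous sample 3 for 5.

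The diet changed these genes unevenly. Wildtype livers on CDAHFD had more Col4a1, Nid1, Col4a2, Lamb1 and Lamc1 RNA than wildtype livers on chow and less Nid2, while Hspg2, Lama4, Col15a1 and Col18a1 did not pass the test. By edgeR's quasi-likelihood test, with p-values adjusted by Benjamini-Hochberg over all genes and a threshold of 0.05, 6 of the 10 genes were called, 5 higher and 1 lower. Of all 17104 genes, 27.1% were called in this comparison, 14.8% higher and 12.2% lower. For 4 of the 10 genes, Col4a1, Col4a2, Lamb1 and Nid1, all 6 wildtype CDAHFD livers lay above all 5 chow livers, as did 7.95% of all genes. The median log2 fold change of the 10 genes was 0.46, beside -0.01 over all genes tested. In these bulk livers, fewer cells of a type and less RNA per cell cannot be told apart, and the same holds for more cells and more RNA per cell.

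**Figure D1:**
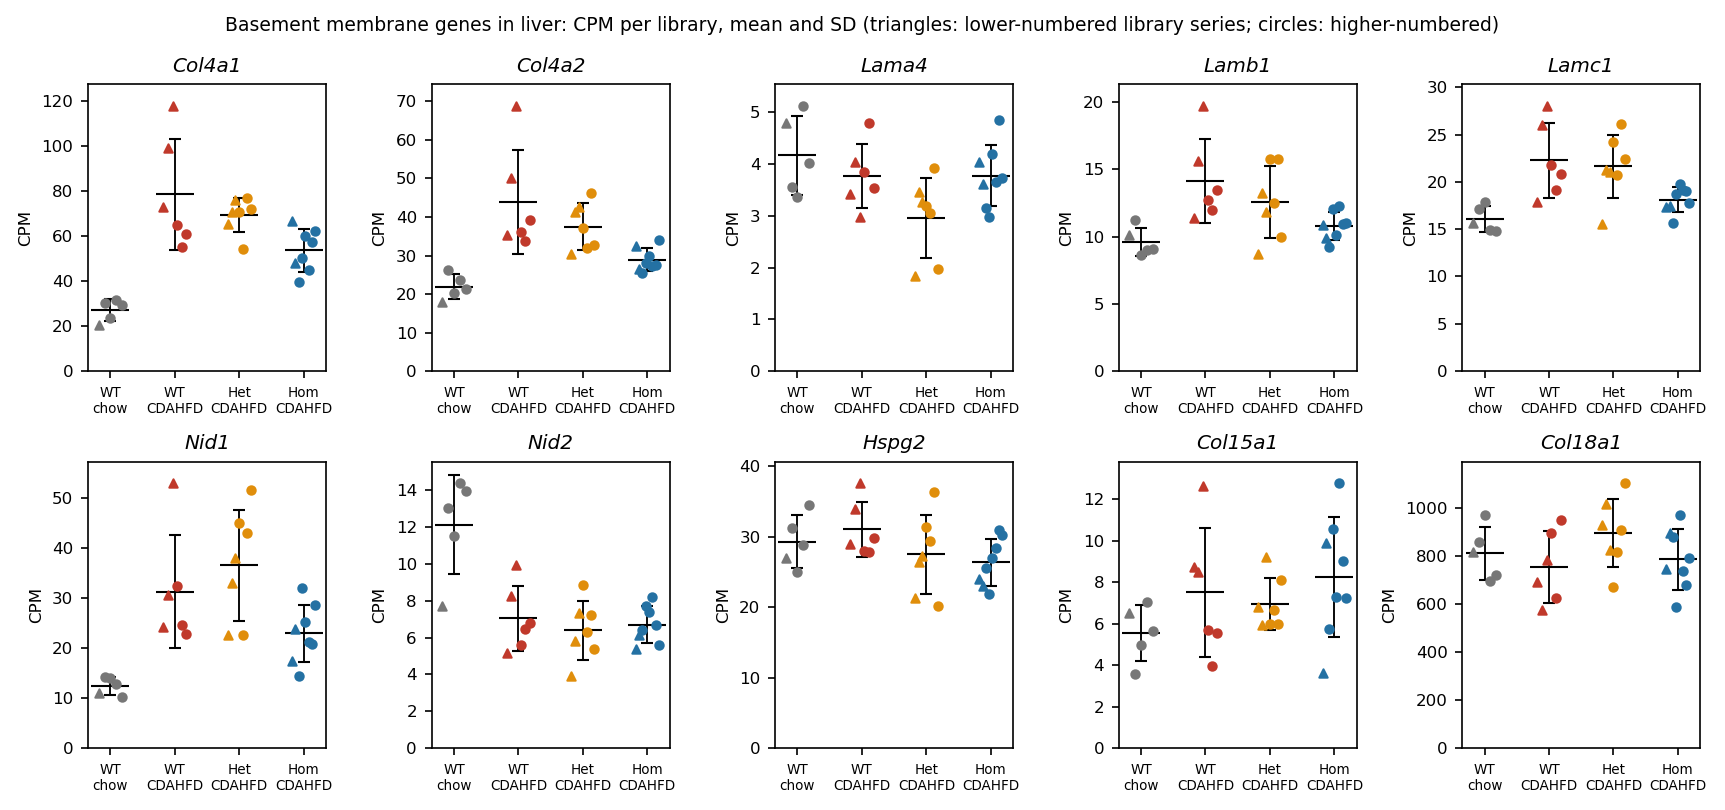
CPM of each gene in each library, by group (WT, wildtype; Het and Hom, heterozygous and homozygous Mtarc1 knockout), with the group mean and SD as black bars and an axis from 0 that differs between genes. Triangles are the 9 lower-numbered libraries and circles the 17 higher-numbered ones. All 6 wildtype CDAHFD points lie above all 5 chow points for Col4a1, Col4a2, Lamb1 and Nid1, and most lie below them for Nid2.

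Col4a1 (ENSMUSG00000031502.12) and Col4a2 (ENSMUSG00000031503.14) encode the α1 and α2 chains of the collagen IV found in nearly every basement membrane, where α1 and α2 chains assemble in a ratio of 2 to 1 into a triple helix. The genes lie head to head on mouse chromosome 8 and share a promoter region. Their windows in RefSeq's annotation of GRCm38.p6, from 250 bases before to 50 after each start site, are printed because the pair moved together between libraries but to different extents with the diet. That build differs from the one named for the counts, so the coordinates serve only to place the sequence. The Col4a1 window is chr8:11312777-11313076 on the minus strand and the Col4a2 window chr8:11312555-11312854 on the plus strand; each is written 5′ to 3′ on its own gene's strand, with the 78 bases that both windows hold in capitals.
Col4a1: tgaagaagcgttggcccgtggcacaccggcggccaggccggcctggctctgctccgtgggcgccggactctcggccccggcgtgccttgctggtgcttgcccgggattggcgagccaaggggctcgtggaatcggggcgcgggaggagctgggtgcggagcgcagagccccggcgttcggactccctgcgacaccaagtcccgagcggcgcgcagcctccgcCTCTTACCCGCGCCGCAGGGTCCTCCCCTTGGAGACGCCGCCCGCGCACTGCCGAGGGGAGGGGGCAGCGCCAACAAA
Col4a2: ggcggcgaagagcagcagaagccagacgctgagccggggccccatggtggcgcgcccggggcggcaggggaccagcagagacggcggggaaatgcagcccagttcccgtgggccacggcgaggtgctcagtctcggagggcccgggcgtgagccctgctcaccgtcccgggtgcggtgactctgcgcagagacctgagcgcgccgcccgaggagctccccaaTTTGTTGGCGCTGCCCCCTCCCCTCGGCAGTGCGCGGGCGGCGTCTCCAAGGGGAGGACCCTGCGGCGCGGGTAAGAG

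The capitals of the 2 windows are reverse complements of each other, and 73.1% of those bases are G or C. The annotated start sites, at 11312826 for Col4a1 and 11312805 for Col4a2, are 21 bases apart, and the transcripts run outward past each other so that 22 bases belong to exons of both genes on opposite strands. G and C made up 74.0% of the Col4a1 window and 73.7% of the Col4a2 window, against a median of 52.7% over 32851 mouse promoter windows of the same length. On either strand, the GC box GGGCGG, which zinc finger factors of the Sp family are known to bind, occurred 1 time in the Col4a1 window and 3 times in that of Col4a2, and 35.7% of all windows hold at least 1. The CCAAT box occurred 1 time in each, and 37.4% of all windows hold it. Neither window held TATAAA, present in 13.6% of all windows. These matches describe the sequence and do not show a site in use.

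Col4a1 was at 20.7, 30.2, 23.6, 31.5 and 29.5 CPM in the 5 chow livers. On CDAHFD the wildtype livers ranged from 55.0 through a median of 68.9 to 118 CPM, the heterozygous from 54.1 through 70.7 to 76.7 and the homozygous from 39.3 through 53.8 to 66.7. Every CDAHFD liver of any genotype lay above every chow liver. The mean was 27.1 ± 4.70 CPM (SD, n = 5) on chow and 78.5 ± 24.7 (n = 6) in wildtype livers on CDAHFD, a log2 fold change of 1.53 ± 0.17 (SE; edgeR adjusted p = 6.42e-07), the largest of the 10 genes. It was 1.24 without wildtype CDAHFD samples 2 and 3 and 1.07 in the higher-numbered series alone (edgeR adjusted p = 3.40e-06 and 0.000546).

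Col4a2 was at 18.05, 26.3, 20.4, 23.6 and 21.2 CPM in the chow livers. It ran from 33.6 through a median of 37.6 to 68.9 CPM in wildtype, from 30.4 through 37.1 to 46.2 in heterozygous and from 25.5 through 27.8 to 34.0 in homozygous CDAHFD livers. Wildtype and heterozygous livers on the diet did not overlap with chow, and 7 of 8 homozygous livers lay above all chow livers. The diet difference in wildtype livers was 1.00 ± 0.15 on the log2 scale (edgeR adjusted p = 2.68e-05), 0.73 without samples 2 and 3 and 0.67 in the higher-numbered series alone, where it was still called.

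The ratio of Col4a1 to Col4a2 CPM within a library shows the unequal rise without any scaling between libraries. On chow it was 1.15, 1.15, 1.16, 1.33 and 1.39. In wildtype CDAHFD livers it ran from 1.56 to 2.05 with a geometric mean of 1.78, with no overlap with chow. The difference of the mean log2 ratio was 0.53 (exact two-sided permutation p = 0.00216, the smallest that 6 against 5 samples allow; 0.00866 after Benjamini-Hochberg adjustment over 8 ratio tests). Heterozygous and homozygous livers had geometric means of 1.86 and 1.84, and homozygous livers differed from wildtype on CDAHFD by 0.04 (exact permutation p = 0.593, adjusted 0.678). A change in the ratio shows that the genes changed unequally, not which protein was made.

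**Figure D2:**
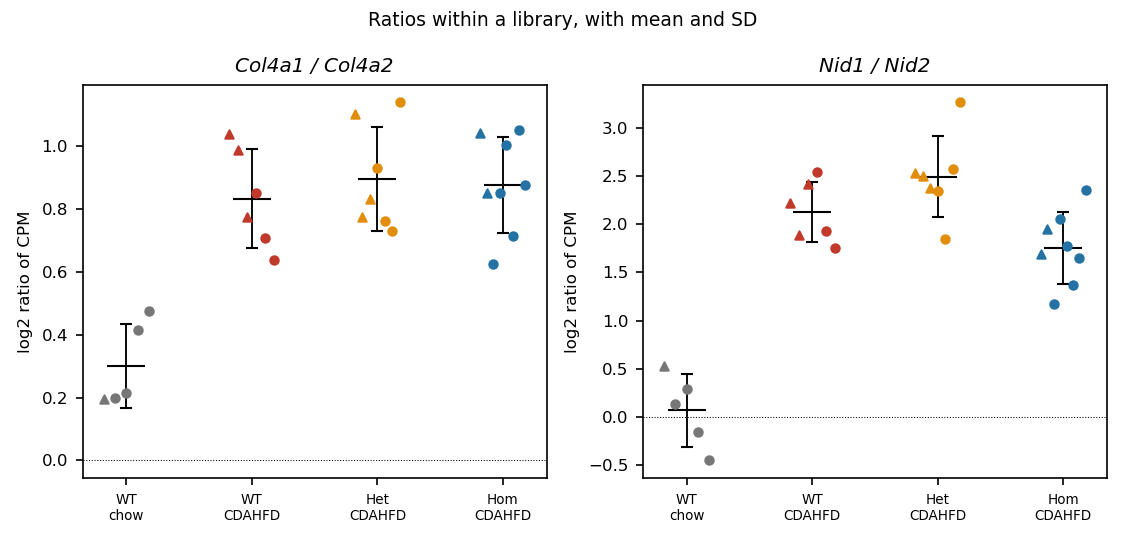
Log2 ratio of CPM within each library for Col4a1 over Col4a2 (left) and Nid1 over Nid2 (right), by group, with mean and SD as black bars; triangles are lower-numbered and circles higher-numbered libraries. In both panels the 5 chow points lie below all points of the 3 CDAHFD groups.

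The nidogens join the laminin and collagen IV networks, and the 2 family members moved in opposite directions. Nid1 (ENSMUSG00000005397.9) was at 11.1, 14.2, 14.1, 12.9 and 10.2 CPM on chow. It ran from 22.9 through a median of 27.6 to 53.0 CPM in wildtype, from 22.5 through 37.9 to 51.6 in heterozygous and from 14.4 through 22.5 to 32.0 in homozygous CDAHFD livers. All 21 CDAHFD livers lay above all chow livers. The wildtype diet difference was 1.33 ± 0.24 (SE; edgeR adjusted p = 0.000165) and was 1.06 in the higher-numbered series alone.

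Nid2 (ENSMUSG00000021806.5) was at 7.73, 13.01, 11.49, 14.4 and 13.9 CPM on chow, the lowest being the only chow library of the lower-numbered series. It ran from 5.18 through a median of 6.62 to 9.94 CPM in wildtype, from 3.90 through 6.32 to 8.84 in heterozygous and from 5.396 through 6.52 to 8.20 in homozygous CDAHFD livers. The groups overlapped only with that chow library: 4 of 6 wildtype livers on the diet lay below all chow livers, and the other two lay below the other 4 chow livers. The level fell by 0.78 ± 0.18 on the log2 scale in wildtype livers (edgeR adjusted p = 0.00230), and by 1.07 in the higher-numbered series alone. In GENCODE's annotation of GRCm38, 437 bases of Nid2 exons overlap exons of Rtraf on the opposite strand, and no source used here says whether reads were counted by strand; reads from those bases cannot be told apart. Rtraf was at 49.0 ± 6.53 CPM (SD, n = 5) on chow and 54.8 ± 4.00 (n = 6) in wildtype CDAHFD livers, a log2 difference of 0.16 (edgeR adjusted p = 0.180), opposite in sign to that of Nid2.

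The ratio of Nid1 to Nid2 was 1.44, 1.09, 1.22, 0.895 and 0.731 in the chow livers and ran from 3.38 to 5.81 in wildtype CDAHFD livers, so the groups lay apart. The mean log2 ratio was higher by 2.06 (exact two-sided permutation p = 0.00216, the smallest possible; adjusted 0.00866). Geometric means were 1.05 on chow and 4.36, 5.63 and 3.37 in wildtype, heterozygous and homozygous livers on the diet. The homozygous ratio was lower than the wildtype by 0.37 on the log2 scale, which did not pass (exact permutation p = 0.0749, adjusted 0.200). Per kilobase of exon, mean Nid2 (2.34 CPM per kb) exceeded mean Nid1 (1.80) on chow, and Nid1 exceeded Nid2 in every CDAHFD group (4.51 against 1.36 in wildtype).

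Laminins are trimers of an α, a β and a γ chain, and the α4, β1 and γ1 chains together make a laminin known from vessel walls. Lamb1 (ENSMUSG00000002900.18), the β1 chain, was at 10.1, 11.2, 8.66, 8.99 and 9.08 CPM on chow and ran from 11.4 through a median of 13.1 to 19.7 in wildtype CDAHFD livers, all above chow. Its log2 difference was 0.56 ± 0.15 (SE; edgeR adjusted p = 0.00514). It was 0.37 without wildtype CDAHFD samples 2 and 3 and 0.42 in the higher-numbered series alone, and neither was called (edgeR adjusted p = 0.0726 and 0.0785). Lamc1 (ENSMUSG00000026478.15), the γ1 chain that most laminins share, was at 15.7, 17.1, 17.8, 14.9 and 14.8 CPM on chow and ran from 17.8 through 21.3 to 28.1 in wildtype CDAHFD livers. Of those 6 livers, 5 lay above all chow livers and the lowest lay just under the highest chow liver. The difference was 0.47 ± 0.11 (edgeR adjusted p = 0.00284), and it kept its call in the same 2 settings, with 0.32 and 0.35. The ratio of Lamb1 to Lamc1 had geometric means of 0.60 on chow and 0.63 in wildtype CDAHFD livers (exact permutation p = 0.411, adjusted 0.548), with overlapping groups.

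Lama4 (ENSMUSG00000019846.12), the α4 chain, had the lowest level of the 10 genes per kilobase in every group and between 42 and 125 counts in a library. It was at 4.79, 3.56, 3.37, 5.13 and 4.01 CPM on chow, and its median was 3.69 in wildtype (2.97 to 4.79), 3.19 in heterozygous (1.84 to 3.92) and 3.69 in homozygous (2.98 to 4.84) CDAHFD livers. The wildtype diet difference was -0.15 ± 0.18 on the log2 scale (edgeR adjusted p = 0.576), and the groups overlapped. The β1 and γ1 chains thus passed the test and the α4 chain did not; whether their changes differ was not tested.

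Hspg2 (ENSMUSG00000028763.19) encodes perlecan. It was at 27.1, 31.3, 24.96, 28.8 and 34.6 CPM on chow and ran from 27.9 through a median of 29.4 to 37.6 in wildtype CDAHFD livers, a log2 difference of 0.08 ± 0.13 (edgeR adjusted p = 0.673). Col15a1 (ENSMUSG00000028339.18), a collagen with heparan and chondroitin sulfate chains known from vessels and muscle, was at 6.54, 3.61, 4.97, 7.03 and 5.65 CPM on chow and ran from 3.96 through 7.09 to 12.7 in wildtype CDAHFD livers, at 0.44 ± 0.27 (edgeR adjusted p = 0.241). Its 3 highest values in wildtype CDAHFD livers, 8.73, 8.49 and 12.7 CPM, were the 3 libraries of the lower-numbered series, and the higher-numbered series alone gave -0.06. Its coefficient of variation in wildtype CDAHFD livers, 41.5%, was the highest of the 10 genes in that group.

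Col18a1 (ENSMUSG00000001435.16), whose C-terminal fragment is endostatin, had by far the highest level per kilobase: 116 CPM per kb of exon on chow, against 3.63 for Col4a1 as the next. It was at 815, 858, 969, 694 and 719 CPM on chow, and ran from 573 through a median of 738 to 951 in wildtype, from 669 through 909 to 1103 in heterozygous and from 587 through 766 to 972 in homozygous CDAHFD livers. The wildtype diet difference was -0.11 ± 0.15 (SE; edgeR adjusted p = 0.625), and all groups overlapped. The ratio of Col15a1 to Col18a1 did not differ detectably with the diet either (0.49 on the log2 scale; exact permutation p = 0.221, adjusted 0.353).

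Of the 10 genes, 7 had a promoter window in the RefSeq table, Col18a1 with 2; Lama4, Lamc1 and Nid2 had none. G and C made up 70.3% of the Hspg2 window, 64.7% for Nid1, 63.7% for Lamb1, 63.3% and 59.7% for the upstream and downstream starts of Col18a1 and 52.3% for Col15a1, so that all but Col15a1 lay above the median of all windows. The GC box occurred 5 times in the Hspg2 window, 2 times for Lamb1, 1 time for Nid1 and 3 times at the upstream Col18a1 start, and not in the letters of the Col15a1 or the downstream Col18a1 window. The windows of Col4a1, Col4a2, Nid1, Lamb1 and the upstream Col18a1 start each held 1 CCAAT box, present in 37.4% of all windows. The other windows held none. The AP-1 motif TGANTCA, in 7.81% of all windows, occurred in none of the 8.

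On CDAHFD, homozygous livers had lower mean levels of Col4a2, Col4a1, Nid1, Lamb1, Lamc1 and Hspg2 than wildtype livers, but none of the 10 genes was called by edgeR. Only 1 of 17104 genes was called, Mtarc1 itself (0.00585%), and 1705 had an unadjusted p under 0.05. DESeq2 called 47 genes, Col4a2 among them, or 0.143% of the 32895 genes to which it gave an unadjusted p-value. That number includes low-count genes that the filter for edgeR removed, so the 2 shares do not have the same base. Unadjusted p-values were under 0.05 for 6 of the 10 genes. The log2 fold change was below 0 for 7 of 10, with a median of -0.27 beside 0.01 over all genes tested. Because the wildtype CDAHFD livers enter both this comparison and that with chow, a high wildtype value pushes the 2 differences in opposite directions.

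Col4a2 was the furthest down of the 10 genes, at 28.9 ± 2.96 CPM (SD, n = 8) in homozygous against 43.9 ± 13.6 (n = 6) in wildtype livers. All but 1 of the 8 homozygous livers lay below all wildtype livers. The difference was -0.60 ± 0.13 on the log2 scale, rank 8 of 17104 by p-value (edgeR adjusted p = 0.165, DESeq2 adjusted p = 0.0333). Without wildtype CDAHFD samples 2 and 3 it was -0.32, and in the higher-numbered series alone -0.33, so these libraries moved it by more than 1.5 times. Col4a1 was at -0.55 ± 0.15 (edgeR adjusted p = 0.188), with 4 of 8 homozygous livers below all wildtype livers, and at -0.24 and -0.20 in the same 2 settings.

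Nid1 was at -0.45 ± 0.20 (edgeR adjusted p = 0.444), Lamb1 at -0.39 ± 0.13 (0.280), Lamc1 at -0.30 ± 0.10 (0.293) and Hspg2 at -0.24 ± 0.11 (0.493). Of the 8 homozygous livers, 6 lay below all wildtype livers for Lamb1, 5 for Hspg2 and 4 each for Nid1 and Lamc1, and Lamb1 ranged from 9.25 to 12.3 CPM in homozygous livers. Without samples 2 and 3 these differences were -0.18 for Nid1, -0.19 for Lamb1, -0.13 for Lamc1 and -0.12 for Hspg2. Leaving out wildtype CDAHFD sample 3 alone gave Nid1 -0.23. Of the 4 remaining genes, Nid2 was at -0.07 ± 0.17, Lama4 at 0.00 ± 0.16, Col18a1 at 0.06 ± 0.13 and Col15a1 at 0.14 ± 0.23. Col15a1 was at 0.80 in the higher-numbered series alone and at 0.47 without wildtype CDAHFD samples 2 and 3, and was called in neither.

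**Figure D3:**
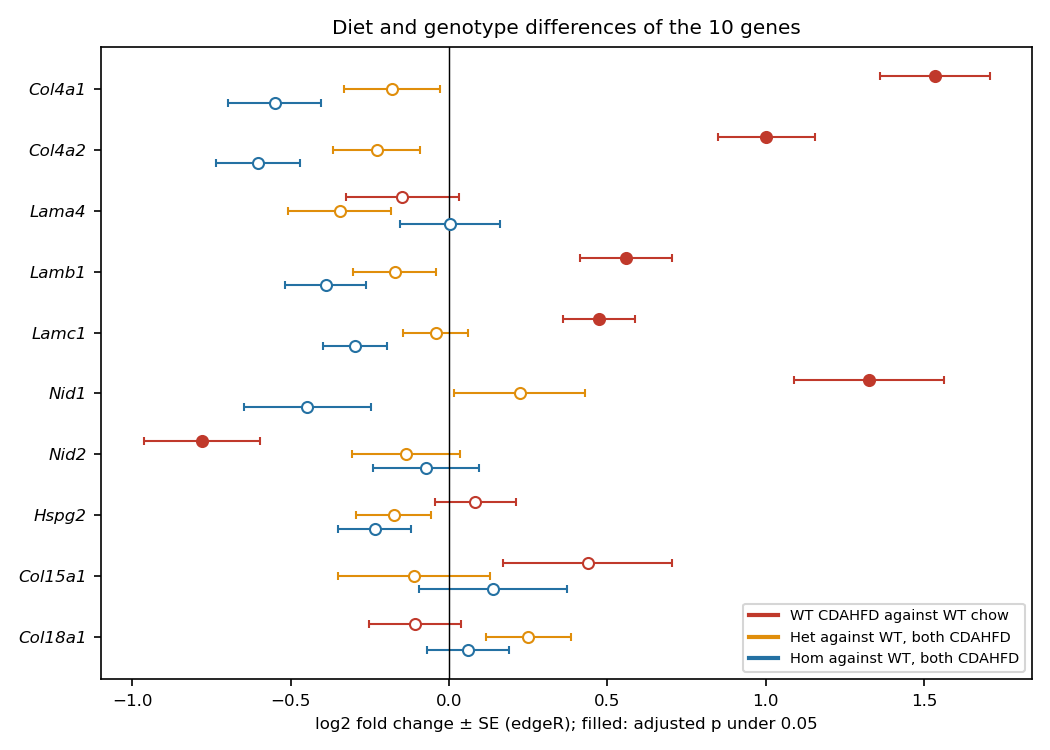
Log2 fold change ± SE from edgeR for each gene in 3 comparisons: wildtype CDAHFD against wildtype chow (red), heterozygous against wildtype on CDAHFD (orange) and homozygous against wildtype on CDAHFD (blue); filled points had an adjusted p under 0.05. Red points are filled for 6 genes, from -0.78 (Nid2) to 1.53 (Col4a1), and no orange or blue point is filled.

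None of the 10 genes was called in heterozygous against wildtype livers on CDAHFD, and none of the 17104 genes was (0%), while 1444 had an unadjusted p under 0.05 and DESeq2 called 3. Lama4 was at -0.35 ± 0.16 (edgeR adjusted p = 0.569), Col18a1 at 0.25 ± 0.13 (0.569) and Nid1 at 0.22 ± 0.21 (0.677). Nid1 was at 0.61 in the higher-numbered series alone, at 0.48 without wildtype CDAHFD samples 2 and 3 and at 0.44 without sample 3 alone, and was called in none of these. It was at 0.15 without wildtype CDAHFD sample 6 and at 0.12 without heterozygous sample 7. Col18a1 was at 0.094 in the higher-numbered series alone. Homozygous against heterozygous livers also gave no called gene among the 10, with 1 of 17104 called (0.00585%), 1219 at an unadjusted p under 0.05 and 15 called by DESeq2. Nid1 had the lowest p of the 10 there, at 22.9 ± 5.75 CPM (SD, n = 8) in homozygous and 36.5 ± 11.1 (n = 7) in heterozygous livers (log2 difference -0.67 ± 0.19, edgeR adjusted p = 0.339). All 8 homozygous Nid1 values lay below the heterozygous mean. Col4a1 and Col4a2 were both at -0.37 in that comparison (edgeR adjusted p = 0.573 and 0.488).

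Set against the same 5 chow livers, each CDAHFD group gave its own calls. Homozygous livers had 4 of the 10 genes called, beside 23.1% of all genes (12.3% higher, 10.8% lower): Col4a1 at 0.98 ± 0.16 (edgeR adjusted p = 0.000109), Nid1 at 0.88 ± 0.22 (0.00597), Col4a2 at 0.40 ± 0.14 (0.0459) and Nid2 at -0.85 ± 0.17 (0.000815). Col4a2 passed there narrowly and lost its call without any of 10 of the 13 libraries compared. Heterozygous livers had 7 called, beside 37.2% of all genes (19.3% higher, 17.9% lower): Nid1 at 1.55, Col4a1 at 1.35, Col4a2 at 0.77, Lamc1 at 0.43 and Lamb1 at 0.39 higher, and Nid2 at -0.92 and Lama4 at -0.49 lower. For Col4a1 and Nid1 all homozygous livers lay above all chow livers, as for 4.61% of all genes, and for these and Col4a2 all heterozygous livers did, as for 7.58%. The Lama4 and Lamb1 calls were each lost without some of the libraries. In order of mean, Col4a1, Col4a2, Lamb1 and Lamc1 ran from chow through homozygous and heterozygous to wildtype CDAHFD livers. The last step of that order rested on wildtype CDAHFD samples 2 and 3: without them the heterozygous against wildtype difference was 0.12, 0.050, 0.018 and 0.12 for these genes, and in the higher-numbered series alone 0.19, 0.033, 0.096 and 0.19. For the collagen IV genes only the lowest step of that order, chow to homozygous, passed the test between neighbours, and for the laminin genes no step did.

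Within groups, 13 of the 45 pairs of these genes varied together from liver to liver, none of them with Lama4, Col15a1 or Col18a1. Over the 26 libraries, after each group's mean log2 CPM was subtracted, the 45 pairs of the 10 genes had a median Pearson r of 0.32, from -0.36 to 0.85; 35 were above 0, and those 13 had an adjusted p under 0.05 (two-sided permutation within groups, Benjamini-Hochberg over 45 pairs). The closest pair was Col4a1 and Col4a2 (r = 0.847, Spearman rho = 0.830; permutation p = 1e-05, the smallest that the 100000 permutations can give, adjusted 0.00045), with r = 0.769 without the 2 libraries farthest from the median of Col4a1. Next were Lamb1 and Lamc1 (r = 0.804, rho = 0.663; permutation p = 2e-05 and 0.00116, adjusted 0.00045 and 0.00968; r = 0.676 without 2 libraries) and Lamc1 and Nid1 (r = 0.738, rho = 0.740; permutation p = 4e-05 and 7e-05, adjusted 0.0006 and 0.00158; r = 0.618 without 2). Nid1 and Nid2, opposite in their response to the diet, were at r = 0.476 within groups (rho = 0.387; permutation p = 0.0231 and 0.0656, adjusted 0.0578 and 0.148; r = 0.254 without 2). Col18a1 did not go with the others: its r ran from -0.36 with Nid2 to 0.00 with Nid1, and none had an adjusted p under 0.05. The genes of a library share its depth and scaling. How many pairs among all genes would pass was not determined, so the 13 of 45 stand without a background. The permutation did not keep to the number series.

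**Figure D4:**
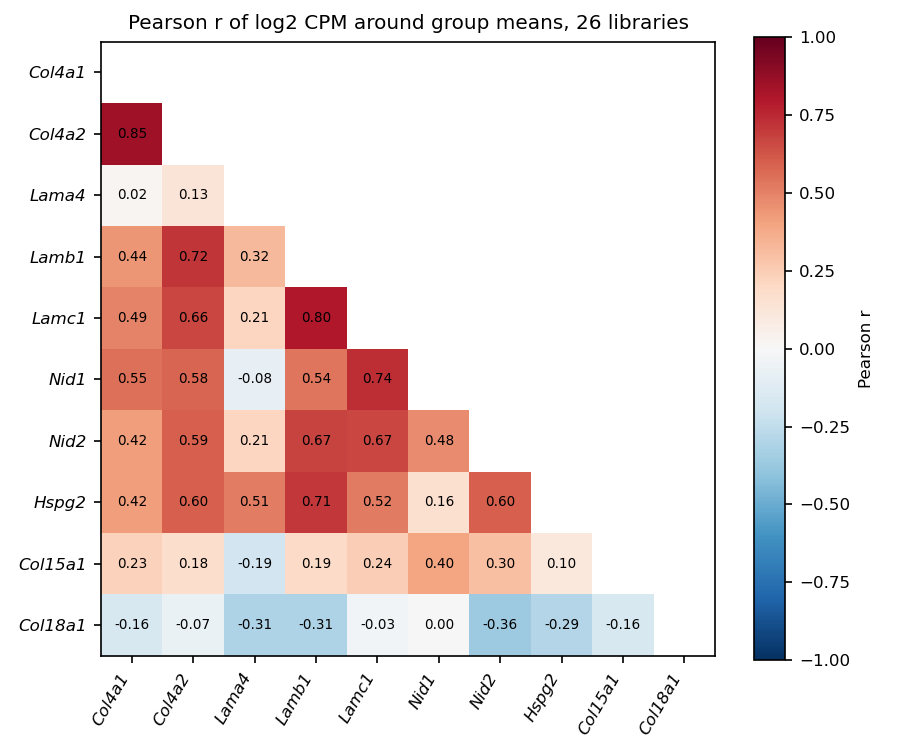
Pearson r between the log2 CPM of each pair of genes over 26 libraries after subtracting group means, on a colour scale from -1 (blue) to 1 (red). The strongest squares are Col4a1 with Col4a2 (0.85) and Lamb1 with Lamc1 (0.80), and the Col18a1 row runs from -0.36 to 0.00.

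Of 10421 other genes with a mean of at least 5 CPM, those whose log2 CPM followed the mean of the 10 genes' standardised values most closely within groups were Itga8 (r = 0.821 over 26 libraries), which encodes an integrin chain, Col6a1 (0.813), a chain of collagen VI, Lum (0.811), a small leucine-rich proteoglycan, Ccdc80 (0.808), Fam49b (0.800) and Dync1li2 (0.798), a dynein chain. Without the 2 libraries farthest from the median these were between 0.691 and 0.717. With the diet, Col6a1 rose by 0.78 ± 0.17, Lum by 1.39 ± 0.23, Ccdc80 by 1.44 ± 0.17 and Fam49b by 0.37 ± 0.10 on the log2 scale (edgeR, adjusted p at most 0.00760), while Itga8 at 0.41 ± 0.20 and Dync1li2 at -0.04 ± 0.08 were not called.

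Among the other collagen IV and laminin chains, 2 of 12 were higher with the diet and none was lower. These were Lamb3 at 0.74 ± 0.20 and Lama2, the muscle laminin chain, at 0.78 ± 0.26 (edgeR adjusted p = 0.00632 and 0.0280). Col4a3 was at -0.71 ± 0.34 and Lama3 at -0.65 ± 0.32, neither called (0.120 and 0.131). The median of the 12 was -0.02. Beside this list and those that follow, 27.1% of all 17104 genes were called with the diet, 14.8% higher and 12.2% lower. In homozygous against wildtype livers none was called; Lama2 was at -0.57 ± 0.23 and Lamb3 at -0.01 ± 0.17.

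Of 17 proteins that associate with basement membranes, 16 were tested. With the diet 3 rose and 1 fell (median 0.26), beside 14.8% higher and 12.2% lower of all genes. Sparc, a matricellular protein that binds collagen IV, rose by 1.17 ± 0.17 (edgeR adjusted p = 1.18e-05), Hmcn2, a hemicentin, by 1.02 ± 0.28 and Smoc2, of the Sparc family, by 0.76 ± 0.20, while Papln, papilin, fell by 0.84 ± 0.26. None was called in homozygous against wildtype livers, where Sparc was at -0.61 ± 0.14 (edgeR adjusted p = 0.165), Hmcn2 at -0.42 ± 0.24, Smoc2 at -0.32 ± 0.17 and Papln at 0.32 ± 0.23. Sparc averaged 85.1 CPM on chow and 191, 139 and 126 CPM in wildtype, heterozygous and homozygous livers on the diet.

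Of 11 cell receptors for basement membrane proteins, 1 rose and 1 fell with the diet (median 0.17). Ddr1, a receptor tyrosine kinase for collagen, rose by 1.09 ± 0.17 (edgeR adjusted p = 2.47e-05), and Itga7, a laminin-binding integrin chain, fell by 0.41 ± 0.14 (0.0255). Itga2, a collagen-binding chain, was at 0.93 ± 0.38 and Itgb1, the β chain shared by these integrins, at 0.30 ± 0.13, neither called. None was called in homozygous against wildtype livers, with Ddr1 at -0.32 ± 0.14, Itga7 at 0.04 ± 0.12, Itga2 at -0.71 ± 0.31 and Itgb1 at -0.09 ± 0.11.

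The genes for modifying, folding and exporting collagen chains moved mostly one way: 7 of 16 tested, from a list of 17, rose with the diet and none fell (median 0.34). Serpinh1, the collagen chaperone HSP47, rose by 1.29 ± 0.22 (edgeR adjusted p = 7.82e-05), P4hb, the β subunit of prolyl 4-hydroxylase, by 0.64 ± 0.11, Colgalt1, which adds galactose to hydroxylysine, by 0.61 ± 0.13 and Crtap, part of the prolyl 3-hydroxylation complex, by 0.56 ± 0.11. In homozygous against wildtype livers none was called (median -0.19), with Serpinh1 at -0.56 ± 0.19, Crtap at -0.30 ± 0.10, Colgalt1 at -0.17 ± 0.12 and P4hb at 0.20 ± 0.10.

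Enzymes that make or trim heparan sulfate, the sugar carried by perlecan and collagen XVIII, moved little with the diet in wildtype livers. Of 12, 1 was called: Ndst2, an N-deacetylase/N-sulfotransferase, which fell by 0.33 ± 0.07 (edgeR adjusted p = 0.000950). The median of the list was 0.16. The polymerising enzyme Ext1 was at 0.17 ± 0.08, Extl3, which starts the chain, at 0.28 ± 0.13 and Xylt1, which adds the linker xylose, at 0.63 ± 0.30, none called. In homozygous against wildtype livers none of the 12 was called, with Ndst2 at 0.11 ± 0.06, Ext1 at -0.03 ± 0.07, Extl3 at -0.07 ± 0.12 and Xylt1 at -0.44 ± 0.26. Heterozygous livers against chow had 5 higher and 1 lower (median 0.33), beside 19.3% higher and 17.9% lower of all genes. On CDAHFD, 11 of the 12 were above 0 in heterozygous against wildtype livers and 11 below 0 in homozygous against heterozygous livers, none called.

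Of 13 proteases of basement membrane and their inhibitors, 11 were tested and 8 rose with the diet, with none lower (median 0.70). Timp1, an inhibitor of metalloproteinases, rose by 3.47 ± 0.54 (edgeR adjusted p = 3.08e-05) from a mean of 0.33 CPM on chow to 3.78 CPM, Plat, tissue plasminogen activator, by 2.04 ± 0.30, Mmp2, a gelatinase that degrades collagen IV, by 1.43 ± 0.27 and Ctsl, cathepsin L, by 0.70 ± 0.11. In homozygous against wildtype livers none was called (median -0.36), with Timp1 at -0.88 ± 0.37, Plat at -0.69 ± 0.24, Mmp2 at -0.36 ± 0.23 and Ctsl at -0.14 ± 0.10. Fold changes of Timp1 and Plat rest on low levels on chow.

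**Figure D5:**
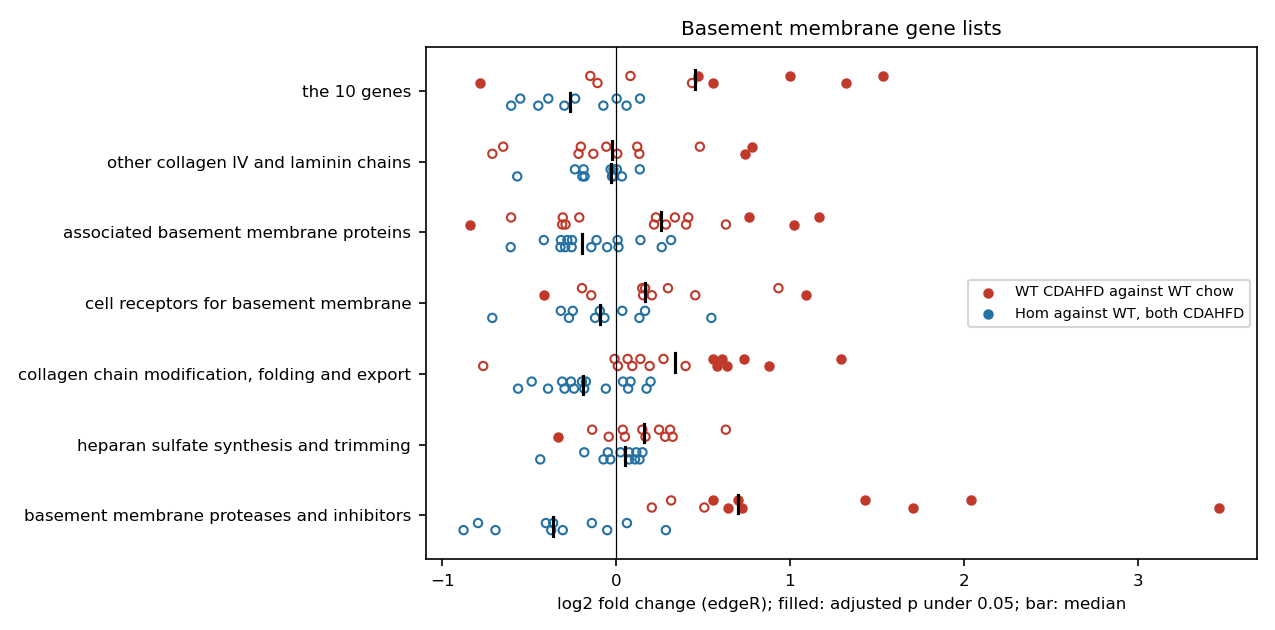
Log2 fold change from edgeR for the 10 genes and for each list of related genes, for wildtype CDAHFD against chow (red) and homozygous against wildtype on CDAHFD (blue); filled points had an adjusted p under 0.05 and black bars are medians. Red medians run from -0.02 for the other collagen IV and laminin chains to 0.70 for proteases and inhibitors, and no blue point is filled.

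Markers of some liver cell types also changed with the diet. Over all genes, 14.8% were called higher with the diet and 12.2% lower. All 7 tested of 8 myofibroblast markers rose with the diet (median 2.28), their summed level going from 41.2 to 66.1 CPM on chow to 131 to 317 in wildtype, 122 to 180 in heterozygous and 89.4 to 162 in homozygous livers on CDAHFD. All 7 were below 0 in homozygous against wildtype livers (median -0.83), none called. Of 10 quiescent stellate cell markers, 2 rose and 1, Ecm1, fell with the diet, and 9 were above 0 (median 0.29). All 10 were below 0 in homozygous against wildtype livers, and 7 of the 10 in heterozygous against wildtype livers, none called. Their sum ran from 279 to 330 CPM on chow. On the diet the sum ran from 232 to 289 in wildtype, 179 to 340 in heterozygous and 175 to 264 in homozygous livers. Ecm1, with a mean of 186 CPM on chow and 116 in wildtype CDAHFD livers, weighs most in that sum. Portal fibroblast markers rose for 4 of 6 (summed 10.8 to 18.2 CPM on chow, then 16.9 to 67.7, 17.3 to 37.0 and 15.05 to 29.1). Macrophage markers rose for 7 of 8 (summed 156 to 281 CPM on chow, then 299 to 467, 280 to 416 and 221 to 347).

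Endothelial markers moved less. None of 7 sinusoidal endothelial markers was called with the diet. On chow their sum was 232 to 308 CPM. On CDAHFD it was 255 to 303 in wildtype, 158 to 312 in heterozygous and 181 to 306 in homozygous livers. All 7 were below 0 in homozygous and also in heterozygous against wildtype livers (medians -0.23 and -0.18), none called. Vascular endothelial markers rose for 2 of 8, Plvap and Cd34 (130 to 143 CPM on chow, then 156 to 190, 95.9 to 215 and 96.3 to 174). Cd34 is also among the portal fibroblast markers counted above. Plvap alone averaged 62.5 CPM on chow and 97.8 in wildtype CDAHFD livers. Bile duct markers gave 1 higher and 1 lower of 6 (86.1 to 124 CPM on chow, 101 to 217 in wildtype CDAHFD), and mesothelial markers none of 5 (7.02 to 17.6, then 3.81 to 18.9). The 8 hepatocyte markers summed to 92011 to 118603 CPM on chow and 58727 to 94715 in wildtype CDAHFD livers, with 3 lower and none higher. No marker was at 0 in all samples of a group. The part of cell number in the results above was not tested.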

How the data were processed

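RNA from 26 mouse liver samples was sequenced. Per the submitters' processing notes, the authors used cutadapt 3.5, Salmon 1.4.0 and GRCm39 (mm39), and they deposited estimated counts per gene. Counts were rounded to whole numbers. Gene symbols matched 51475 of 55642 identifiers, and 0 columns were left unused. One edgeR 4.0.16 quasi-likelihood model (R 4.3.3, TMM, default low-count filter, robust) was fitted to all 26 libraries in 4 groups, with an adjusted p of 0.05 as threshold, after tests on simulated data. In that test of the homozygous against wildtype comparison (16877 genes), 49.3% of 1.5-fold and 91% of 2-fold changes were recovered. For the diet (16870 genes) these were 52.2% and 85.1%. The simulation changed 67 genes by each of these folds, none of them from the lowest levels. With 1 gene called in the real homozygous comparison, the adjusted threshold is harder to pass there. The homozygous shares may therefore overstate what that comparison can recover. Ratios were tested by exact permutation (scipy 1.17.1). No 2 libraries of a group were duplicates (chi-square per degree of freedom from 15.4 in 74 pairs). CPM uses TMM-scaled totals; levels per kilobase use exon lengths of GENCODE vM21.

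The members and the lists were chosen with earlier results of these data known. The text names the 10 genes, Mtarc1, the 4 genes of lowest p in the diet comparison per list and the 6 of most like pattern; Rtraf was named for its overlap. Alternatives were DESeq2 1.42.0, other size factors, no filter, fits of 2 groups, a replicate block, the number series and left-out libraries.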

Additional observations from a re-analysis of the deposited data

Results flagged for a closer look

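Among 56 sets of values (each gene and ratio in each group), 2 held a library far from the rest of its group by Dixon's criterion, which chance meets in about 1 set of 20. Nid1 was at 53.0 CPM in wildtype CDAHFD sample 3, while the other 5 wildtype CDAHFD livers ran from 22.9 to 32.5 CPM; the gap was 0.682 of the group's range, over a critical value of 0.625. The ratio of Nid1 to Nid2 was 9.61 in heterozygous sample 7, while the other 6 heterozygous livers ran from 3.59 to 5.97; the gap on the log2 scale was 0.605 of the range, over a critical value of 0.568.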

How the results depend on the processing

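The same 6 genes were called for the diet under DESeq2, other size factors, no filter, a fit of 2 groups, the number series as covariate and without each library in turn; Lamb1 was lost in the higher-numbered series alone (0.42) and without wildtype CDAHFD samples 2 and 3 together (0.37). For homozygous against wildtype livers, DESeq2 called 1 of the 10 genes, Col4a2, and 47 genes in all against 1 by edgeR; for heterozygous against wildtype it called 3 against 0, and for homozygous against heterozygous 15 against 1. Without each replicate in turn, 3 to 4 genes were called in homozygous and 5 to 7 in heterozygous livers against chow.

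Signs turned only among differences that were not called; the cause was not tested. In the higher-numbered series alone the diet gave Lama4 0.017, Hspg2 -0.063, Col15a1 -0.063 and Col18a1 0.027, and the log2 ratio of Col15a1 to Col18a1 -0.057. Homozygous against wildtype livers gave Lama4 -0.11, Nid2 0.16 and Col18a1 -0.084 there. That ratio kept its sign in homozygous against wildtype livers but was larger there, at 0.84 (exact permutation p = 0.0357, unadjusted) against 0.082 with all libraries. Heterozygous against wildtype gave Col4a1 0.19, Col4a2 0.033, Lamb1 0.096, Lamc1 0.19, Nid2 0.15, Hspg2 0.046 and Col15a1 0.40. Without wildtype CDAHFD samples 2 and 3, Hspg2 was at -0.026 with the diet; homozygous against wildtype gave Lama4 -0.045, Nid2 0.16 and Col18a1 -0.0089; heterozygous against wildtype gave Col4a1 0.12, Col4a2 0.050, Lamb1 0.018, Lamc1 0.12, Nid2 0.091 and Col15a1 0.22. With the number series as covariate, Lama4 was at -0.0055 in homozygous against wildtype livers.

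Leaving out each library in turn, homozygous against wildtype livers ranged from -0.057 to 0.083 for Lama4, -0.15 to 0.052 for Nid2, -0.013 to 0.14 for Col18a1, -0.056 to 0.24 for the Col15a1 to Col18a1 ratio and -0.46 to -0.29 for the Nid1 to Nid2 ratio (exact permutation p from 0.0256 to 0.166, unadjusted). Heterozygous against wildtype ranged from -0.10 to 0.035 for Lamc1 and -0.24 to 0.10 for Col15a1, and homozygous against heterozygous from -0.025 to 0.17 for Nid2 and -0.12 to 0.020 for Hspg2.

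With the sample number of the titles as a replicate block, 6, 0, 0 and 0 of the 10 genes were called in the diet, homozygous, heterozygous and homozygous against heterozygous comparisons, and 3 and 6 in homozygous and heterozygous livers against chow. Over all genes the block gave 4464 calls for the diet against 4630. Same-numbered samples of different groups had a mean correlation of 0.03 over 34 pairs, 16 of them over 0.1. For differently numbered samples the mean was -0.0051 over 217 pairs, 55 of them over 0.1. Whether same-numbered samples share more than a number was not tested. Lama4, at 42 to 125 counts a library, has the widest counting error of the 10 genes.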
